A study of Mus musculus with 8 samples.

Results

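Purine nucleotide synthesis is described here through 10 genes, Ppat, Gart, Pfas, Paics, Adsl, Atic, Impdh1, Impdh2, Gmps and Hprt, out of 34945 named genes in the deposited table. They were chosen by symbol for their place in the pathway, and all 10 were present and passed the filter on low values (a mean of at least 10 over the 8 libraries). The study sequenced poly-A RNA of AML12, an established mouse hepatocyte line that was derived from liver carrying a human TGF-alpha transgene. One group of 4 cultures received scrambled control siRNA (Scr) and the other 4 received siRNAs against Casp8 (siCasp8), the gene of the initiator caspase of death receptor signalling. Both groups were transfected with Lipofectamine RNAiMAX at 40 nM siRNA and were collected after 48 hours. The labels give the genotype as WT for Scr and as Casp8 knockdown for siCasp8, and the design text calls the cultures biological replicates. All cultures came from 1 cell line, and the labels do not give the siRNA sequences.

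Cells make purine nucleotides de novo or by salvage. The de novo route builds the purine ring on phosphoribosyl pyrophosphate (PRPP), an activated sugar, and ends at inosine monophosphate (IMP), from which AMP and GMP branch off. Salvage enzymes attach ready-made bases to the same PRPP. Liver is known as a main site of de novo purine synthesis and of purine breakdown to urate, and dividing cells draw on the pathway for nucleic acids.

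Casp8 itself averaged 3972 ± 129 in Scr libraries and 1480 ± 108 after its knockdown (SD, n = 4 each), in the deposited normalized unit used for all levels here, so 37.3% of the Scr level was left. Of 14154 genes tested with limma on log2(value + 1), 5689 or 40.2% were called at an adjusted p under 0.05, with 2739 higher (19.4%) and 2950 lower (20.8%) in siCasp8. Depth, estimated from the lowest values, was 30.7 to 51.8 M reads in Scr and 50.5 to 57.1 M reads in siCasp8. When each library was rescaled by its upper quartile instead, the median log2 fold change of all genes moved from 0.00 to 0.10 and the split was 4475 higher and 1665 lower. Of 9 hepatocyte markers in the table, 8 were tested, Ahsg was at 0 in all libraries, and their summed level was 124083 to 133022 in Scr and 121984 to 126716 in siCasp8. Of those 8, 3 were higher (Alb, Ttr and Serpina1a), 2 were lower (Krt8 and Apob) and 3 were not called (Krt18, Hnf4a and Apoa1). The widest shift was in Alb, the albumin gene, at 70.5 to 94.4 in Scr and 3380 to 3948 in siCasp8, and the part of these markers in the results was not tested. Markers of macrophages, endothelium and stellate cells were low in sum, with Adgre1, Clec4f and Cdh5 at 0. Others of these lists were expressed. Csf1r (mean 569 in Scr, 347 in siCasp8) and Col1a1 (117 and 77.9) were called lower and Des (12.1 and 45.3) higher. Ptprc, Cd68 and Pecam1 were tested and not called. The cholangiocyte list, mostly Spp1, summed to 102269 to 111469 in Scr and 118125 to 125840 in siCasp8, with Epcam at or near 0. Within it Spp1 and Sox9 were called higher and Krt7 and Krt19 lower. In such bulk RNA, fewer cells of a type and less RNA per cell cannot be told apart.

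Among the 10 purine genes, 5 fell (Hprt, Atic, Ppat, Gmps and Gart), 1 rose (Paics) and 4 were not called (Pfas, Adsl, Impdh1 and Impdh2). The 6 called genes compare with 40.2% called among all tested genes, and the 5 that fell with 20.8%. The same 5 were lower in every siCasp8 library than in any Scr library, a pattern seen in 19.5% of tested genes. Paics was higher without overlap, as were 18.0% of tested genes, and groups without overlap in either direction made up 37.5%. The median log2 fold change of the 10 was -0.14, beside 0.00 over all tested genes, and the members ranged from -0.53 to 0.16. After upper quartile rescaling 3 were lower (Hprt, Atic and Ppat) and 2 higher (Paics and Impdh2), beside 1665 lower and 4475 higher of all 14164 tested genes. With estimated depth as a covariate the same 3 were lower and none was higher, beside 1475 lower and 1289 higher of all 14154. The plot of the 10 genes by library shows how small these differences were beside the levels themselves.

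**Figure D1:**
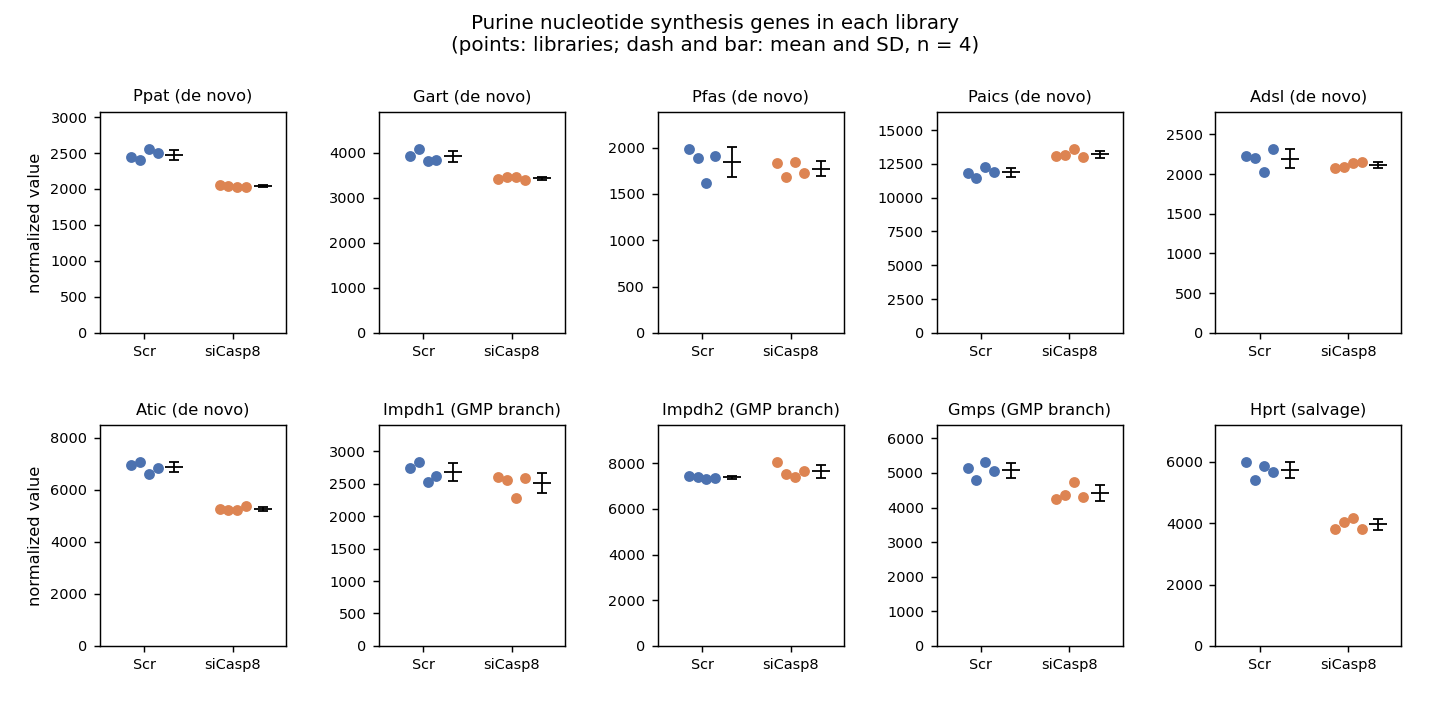
Normalized value (vertical axes, from 0, deposited unit) of the 10 purine synthesis genes in 4 Scr libraries (blue) and 4 siCasp8 libraries (orange), with the mean and SD of each group in black. Hprt, Atic, Ppat, Gmps and Gart are lower in all 4 siCasp8 libraries, Paics is higher in all 4, and the groups overlap for Pfas, Adsl, Impdh1 and Impdh2.

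The first enzyme of the route, the amidophosphoribosyltransferase encoded by Ppat, commits PRPP to purine synthesis and is inhibited by the end products. Ppat values were 2445, 2397, 2555 and 2498 in Scr replicates 1 to 4 and 2056, 2036, 2028 and 2030 in siCasp8 replicates 1 to 4. The siCasp8 libraries lay close together, and all lay below the lowest Scr library. The mean went from 2474 ± 68.3 to 2037 ± 12.7 (SD, n = 4 each), or 82.3% of Scr, with a log2 fold change of -0.28 (SE 0.0375, limma adjusted p = 8.44e-05). Upper quartile rescaling moved the log2 fold change to -0.18, still called (limma adjusted p = 0.00727).

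Paics encodes the enzyme that adds carbon dioxide and then aspartate to the growing ring. Its values were 11828, 11495, 12260 and 11905 in Scr and 13098, 13161, 13602 and 13043 in siCasp8. It was the only one of the 10 that rose, and no siCasp8 library was as low as any Scr library. The mean went from 11872 ± 314 to 13226 ± 255 (SD, n = 4 each), or 111.4% of Scr, with a log2 fold change of 0.16 (SE 0.0321, limma adjusted p = 0.00196). It was 0.26 after upper quartile rescaling, and with the depth covariate it was 0.14 and no longer called (limma adjusted p = 0.0943).

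Ppat and Paics are neighbours that point away from each other. In GRCm38 (GENCODE M21), Ppat occupies bases 76913249 to 76951578 of chromosome 5, minus strand, and Paics bases 76951307 to 76967509, plus strand, so the annotated genes share 272 bases at their starts. The sources used here do not say whether reads were counted by strand, so reads within the shared bases could not be told apart. Ppat also shares 19391 bases with the antisense gene 2310040G07Rik on the opposite strand. Shorter opposite-strand overlaps were annotated for Gart with Gm15964 (2676 bases), Pfas with Gm25819 (84) and Impdh2 with Ndufaf3 (48). The ratio of Paics to Ppat was 4.84, 4.80, 4.80 and 4.76 in the Scr libraries and 6.37, 6.46, 6.71 and 6.43 in the siCasp8 libraries. This pair was chosen after the values were seen, and the ratio is given without a test. It averaged 4.80 ± 0.0299 for Scr and 6.49 ± 0.148 for siCasp8 (SD, n = 4 each), so the spread among Scr libraries was far below the difference between the groups.

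The promoters of 9 of the 10 genes were in the RefSeq table used (GRCm38.p6, 250 bases before to 50 after each start). The windows shown next hold the E-box CACGTG, the site that MYC and MAX are known to bind, and are printed because the 3 genes that carry it moved differently. Capitals mark the motif, which reads the same on both strands.
Paics, chr5:76951089-76951114, plus strand, motif starting 203 bases before the RefSeq start: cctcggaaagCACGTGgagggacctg
Atic, chr1:71557139-71557164, plus strand, motif starting 7 bases before the RefSeq start: acctcggggtCACGTGgggtcgacac
Impdh2, chr9:108560316-108560341, plus strand, motif starting 110 bases before the RefSeq start: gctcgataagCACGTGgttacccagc
Of these 3, Paics rose, Atic fell and Impdh2 was not called. CACGTG occurs in 7.15% of all 32851 promoters of the table and in 9.42% of those of tested genes. The Paics window lies inside the Ppat gene of GENCODE M21. RefSeq and GENCODE starts differ, and the Impdh2 motif, though ahead of its RefSeq start, lies inside the GENCODE gene (chromosome 9, bases 108560286 to 108565584). The Atic motif, also ahead of its RefSeq start, runs across the GENCODE start of Atic at base 71557150.

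On the Ppat side of the pair lies a different motif. Ppat was the only one of the 9 genes whose promoter had the E2F-type letters TTTCCCGC, searched on both strands and present in 1.07% of all promoters and 1.88% of those of tested genes. They appear here as their reverse complement in capitals, at 158 and 211 bases before the RefSeq start of Ppat.
Ppat, chr5:76951719-76951746, minus strand: ggatcagaggGCGGGAAAgggaggtgca
Ppat, chr5:76951772-76951799, minus strand: agcagaccgcGCGGGAAAaaagggcagt
Both windows lie inside the Paics gene of GENCODE M21. Such matches describe the letters in these windows and do not show that a factor is bound.

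Gart encodes a protein with several activities, which adds glycine, transfers a formyl group from folate and closes the first ring. Gart read 3930, 4080, 3818 and 3847 in Scr and 3413, 3458, 3460 and 3391 in siCasp8, with every siCasp8 library below every Scr library. The mean went from 3919 ± 118 to 3431 ± 34.3 (SD, n = 4 each), or 87.5% of Scr, a log2 fold change of -0.19 (SE 0.035, limma adjusted p = 0.000888). The call was lost after upper quartile rescaling (-0.09, limma adjusted p = 0.0704) and with the depth covariate (-0.15, limma adjusted p = 0.0855). The gene occupies bases 91621186 to 91646952 of chromosome 16, minus strand.

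Pfas and Adsl, which act before and after Paics, were not called. Pfas encodes the synthase that takes nitrogen from glutamine, and its values were 1985, 1891, 1616 and 1906 in Scr and 1831, 1680, 1845 and 1725 in siCasp8. The groups overlapped, with Scr replicate 3 as the lowest of all 8 libraries, and the log2 fold change was -0.06 (95% interval -0.20 to 0.08, limma adjusted p = 0.489). Adsl encodes the lyase that splits off fumarate both on the way to IMP and on the way to AMP. It read 2226, 2203, 2030 and 2316 in Scr and 2081, 2086, 2136 and 2155 in siCasp8, a log2 fold change of -0.05 (95% interval -0.15 to 0.05, limma adjusted p = 0.399). For both genes the interval leaves out a fall as large as that of Atic. With upper quartile rescaling the sign turned for both, to 0.04 for Pfas and 0.05 for Adsl.

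Atic, which encodes the enzyme that adds the last formyl group and closes the second ring to give IMP, fell more than any other de novo gene. Atic values were 6960, 7065, 6613 and 6844 in Scr and 5264, 5212, 5223 and 5387 in siCasp8. The groups were well apart, with every siCasp8 library far below the lowest Scr library. The mean went from 6870 ± 194 to 5272 ± 80.2 (SD, n = 4 each), or 76.7% of Scr, with a log2 fold change of -0.38 (SE 0.0333, limma adjusted p = 2.51e-06). The Atic gene spans bases 71557150 to 71579631 of chromosome 1, plus strand.

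The GMP branch turns IMP into GMP through IMP dehydrogenase, which limits the rate and is encoded by Impdh1 and Impdh2, and GMP synthetase, encoded by Gmps. Gmps read 5139, 4784, 5312 and 5048 in Scr and 4250, 4354, 4746 and 4299 in siCasp8. The groups were separated by a narrow gap, between Scr replicate 2 and siCasp8 replicate 3. The mean went from 5071 ± 220 to 4412 ± 226 (SD, n = 4 each), or 87.0% of Scr, with a log2 fold change of -0.20 (SE 0.0451, limma adjusted p = 0.00347). The call was lost after upper quartile rescaling (-0.10, limma adjusted p = 0.118) and with the depth covariate (-0.22, limma adjusted p = 0.0583).

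Neither dehydrogenase gene was called. Impdh1 read 2745, 2835, 2533 and 2616 in Scr and 2612, 2567, 2284 and 2589 in siCasp8, with a log2 fold change of -0.09 (95% interval -0.21 to 0.02, limma adjusted p = 0.177). Impdh2 read 7451, 7405, 7327 and 7347 in Scr and 8050, 7520, 7384 and 7655 in siCasp8, with a log2 fold change of 0.05 (95% interval -0.02 to 0.13, limma adjusted p = 0.264). Impdh2 is known as the form that is raised in proliferating cells, and Impdh1 as the form kept at a steady level in most tissues. Under upper quartile rescaling Impdh1 was at 0.01 and Impdh2 was called higher at 0.15 (limma adjusted p = 0.00897), and Impdh2 was also called under quantile normalization at 0.11 (limma adjusted p = 0.0225). A pseudogene row, Impdh2-ps, was at most 11.4 in any library.

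A ratio of both forms within a library does not depend on its scaling. The ratio of Impdh2 to Impdh1 was 2.71, 2.61, 2.89 and 2.81 in Scr and 3.08, 2.93, 3.23 and 2.96 in siCasp8, so all 4 siCasp8 libraries were above all 4 Scr libraries. The mean log2 ratio was higher by 0.15 in siCasp8 (exact two-sided permutation test over 70 arrangements, p = 0.0286, the smallest this design can give, and 0.0286 after adjustment over the 3 ratios tested). The exact permutation p was 0.0571 without Scr replicate 2 or without siCasp8 replicate 1, 3 or 4, which ends the call, with log2 differences of 0.12 to 0.16. These ratios compare groups and say nothing of which gene has more transcripts, since the deposited values are not scaled by gene length.

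Hprt showed the largest change of the 10 genes. It encodes the salvage enzyme that joins hypoxanthine or guanine to PRPP, and the gene is widely used as a reference gene in PCR work. Hprt values were 5995, 5421, 5881 and 5661 in Scr and 3816, 4050, 4179 and 3803 in siCasp8. The highest siCasp8 library, replicate 3, was well below the lowest Scr library, replicate 2. The mean went from 5739 ± 254 to 3962 ± 184 (SD, n = 4 each), or 69.0% of Scr, with a log2 fold change of -0.53 (SE 0.0442, limma adjusted p = 1.66e-06). The Hprt gene spans bases 52988137 to 53021659 of chromosome X, plus strand.

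Hprt and Ppat use the same PRPP, so their ratio sets salvage beside de novo entry at the transcript level. It was 2.45, 2.26, 2.30 and 2.27 in Scr and 1.86, 1.99, 2.06 and 1.87 in siCasp8, lower in all 4 siCasp8 libraries. The mean log2 ratio differed by -0.25 (exact two-sided permutation test, p = 0.0286, and 0.0286 after adjustment over the 3 ratios). The fall of Hprt was therefore larger than that of Ppat within the same libraries.

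**Figure D2:**
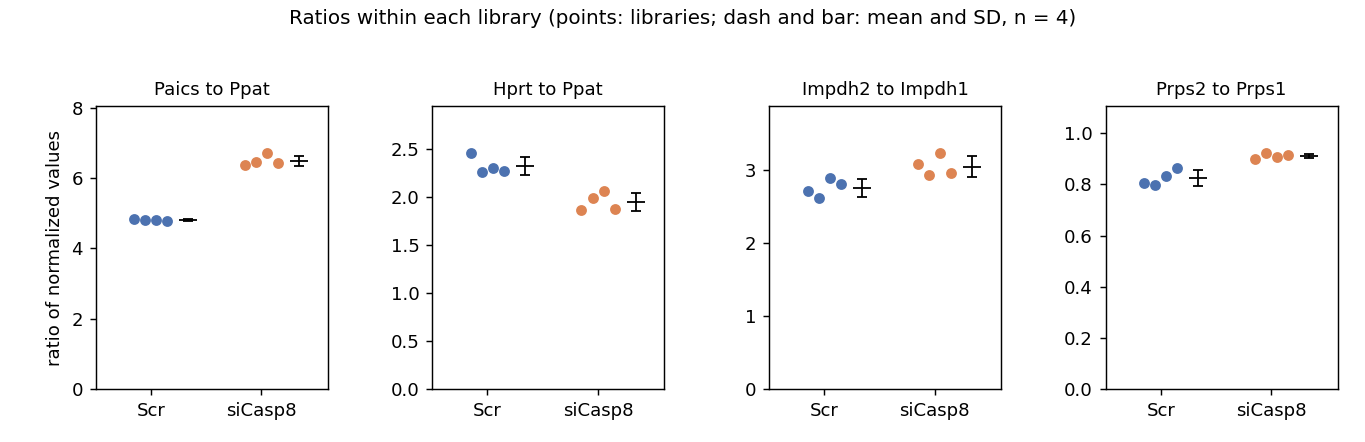
Ratios of normalized values within each library (vertical axes, from 0) for 4 gene pairs, in 4 Scr (blue) and 4 siCasp8 (orange) libraries, with the mean and SD of each group in black. In siCasp8 the ratios Paics to Ppat, Impdh2 to Impdh1 and Prps2 to Prps1 are higher in all 4 libraries and the ratio Hprt to Ppat is lower in all 4.

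Adenine and adenosine are salvaged by Aprt and Adk. Aprt, the adenine counterpart of Hprt, read 4459, 4364, 3935 and 4227 in Scr and 3551, 3680, 3598 and 3699 in siCasp8. It fell without overlap, to 85.5% of Scr (log2 fold change -0.22, SE 0.0426, limma adjusted p = 0.00115), and went to -0.12 after upper quartile rescaling. The call was lost with the depth covariate (limma adjusted p = 0.0819). Adk, the adenosine kinase gene, averaged 3840 ± 400 (Scr) and 3839 ± 94.4 (siCasp8; SD, n = 4 each) and was not called (limma adjusted p = 0.957). Of the 8 tested genes of the AMP branch and salvage beside the 10, none was higher and 3 were lower, with a median of -0.05. Those lower were Aprt and the AMP deaminase genes Ampd2 and Ampd3. Upper quartile rescaling gave 1 higher and 2 lower. With the deposited scaling 19.4% of all tested genes were higher and 20.8% lower. After upper quartile rescaling 4475 of all 14164 were higher and 1665 lower.

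The AMP branch begins with adenylosuccinate synthase, listed in the table under the older symbols Adss and Adssl1. Adss, the broadly expressed form, averaged 9954 ± 460 (Scr) and 9906 ± 280 (siCasp8; SD, n = 4 each), with a log2 fold change of -0.01 (95% interval -0.09 to 0.08) that took either sign across the scalings. Adssl1, the muscle form, was at 411 ± 29.7 and 459 ± 16.7 (0.16, limma adjusted p = 0.10) and was called after upper quartile rescaling (0.26) or without Scr replicate 1 (0.21). The deaminase gene Ampd2, whose product turns AMP back to IMP, fell from 3189 ± 170 to 2562 ± 244 (log2 fold change -0.32, limma adjusted p = 0.00198).

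PRPP is supplied by the synthetases Prps1 and Prps2 with the associated proteins Prpsap1 and Prpsap2. Of 5 listed genes 2 were higher and 1 lower, or 2 and none after upper quartile rescaling, with a median of -0.03. The shares over all tested genes were 19.4% higher and 20.8% lower with the deposited scaling. After upper quartile rescaling 4475 of all 14164 were higher and 1665 lower. Prpsap2 rose from 1345 ± 46.6 to 1589 ± 94.7 (log2 fold change 0.24, limma adjusted p = 0.00291), a call lost with the depth covariate (limma adjusted p = 0.141). Prps2 rose from 1869 ± 65.8 to 2028 ± 72 (0.12, limma adjusted p = 0.0484) and Prpsap1 fell from 2916 ± 97.7 to 2693 ± 16.1 (-0.11, limma adjusted p = 0.0277). Both calls were weak: that of Prps2 was lost without any 1 of 7 libraries (all but Scr replicate 3), and that of Prpsap1 without any 1 of 6 (all but Scr replicates 1 and 3), with limma adjusted p of up to 0.134 and 0.0843. Prpsap1 was also not called under any of the 3 other scalings. Prps1 was at 2266 ± 64.3 and 2227 ± 83.6 and was not called. The table also lists Prps1l3, a copy of Prps1 at a mean of 1752 in Scr, and how the authors' counting split reads between them is not known.

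The ratio of Prps2 to Prps1 was 0.805, 0.797, 0.833 and 0.865 in Scr and 0.901, 0.922, 0.908 and 0.914 in siCasp8, so the groups did not overlap. The mean log2 ratio was higher by 0.14 in siCasp8 (exact two-sided permutation test, p = 0.0286, and 0.0286 after adjustment over the 3 ratios). Without any 1 of the 4 siCasp8 libraries the exact permutation p was 0.0571, which ends the call, with log2 differences of 0.14 to 0.15.

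Purine breakdown moved in both directions, with 4 of 10 tested genes higher and 3 lower (median 0.11), beside 19.4% and 20.8% of all tested genes. After upper quartile rescaling 4 were higher and none lower, while 4475 of all 14164 tested genes were higher and 1665 lower. Xdh encodes the oxidoreductase that turns hypoxanthine into xanthine and then urate. Its values were 6986, 8088, 7573 and 7697 in Scr and 13373, 14018, 13593 and 13559 in siCasp8, a rise to 179.8% of Scr (log2 fold change 0.85, SE 0.0427, limma adjusted p = 3.85e-08). Gda, the gene of the guanine deaminase that feeds the same reaction, was expressed at a low level and rose from 71.8 ± 12.4 to 133 ± 17.3 (0.88, limma adjusted p = 0.000535). Uox, whose product breaks urate down in mouse liver, had a mean under 10 and was not tested.

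The other called genes of the list went in both directions. Nt5c2, a cytosolic nucleotidase gene, rose by 0.11 (limma adjusted p = 0.0301), and Samhd1, whose product splits deoxynucleoside triphosphates, rose by 0.19 (limma adjusted p = 0.0417). Both had overlapping groups, and both calls were lost with the depth covariate. Pnp, the gene of the phosphorylase that frees hypoxanthine and guanine from their nucleosides, fell from 1430 ± 98.2 to 1253 ± 111 (-0.19, limma adjusted p = 0.0436) with overlapping groups. That call was lost under 12 of the 18 other settings, among them all 3 rescalings and leaving out any 1 of 6 libraries (all but Scr replicate 4 and siCasp8 replicate 2). Ada, the adenosine deaminase gene, fell from 125 ± 17.9 to 91.9 ± 10.3 (-0.44, limma adjusted p = 0.0274), also with overlap, and was not called without Scr replicate 1, Scr replicate 4, siCasp8 replicate 1 or siCasp8 replicate 3 (limma adjusted p up to 0.0783) or after upper quartile rescaling (limma adjusted p = 0.0802). Itpa, whose product clears inosine triphosphate, fell by 0.16 (limma adjusted p = 0.0185) and was not called without siCasp8 replicate 1 (limma adjusted p = 0.0629) or after upper quartile rescaling (-0.06). The calls of Ada and Itpa were also lost with the depth covariate, and that of Ada with no filter on low values. Hypoxanthine and guanine are the bases that Hprt salvages and Pnp frees, while Xdh acts on hypoxanthine and Gda on guanine. Among these genes Hprt was lower, Pnp was lower by a weak call, and Xdh and Gda were higher.

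**Figure D3:**
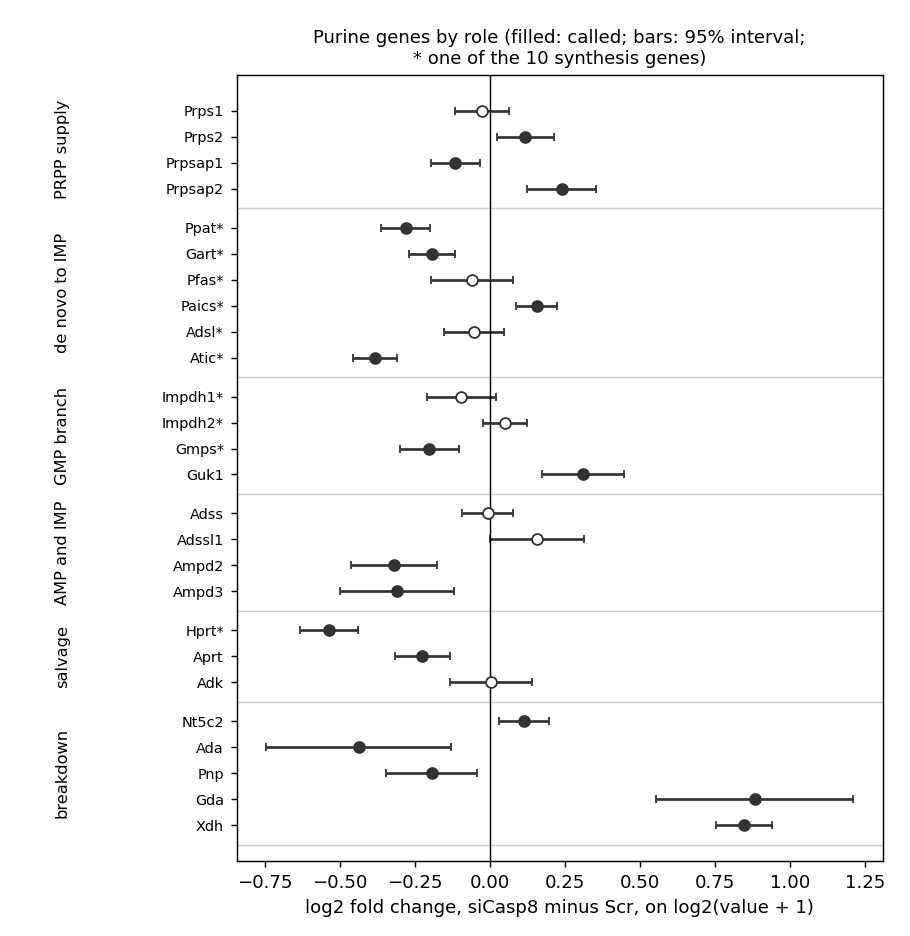
Log2 fold change of siCasp8 minus Scr on log2(value + 1) (horizontal axis) for purine genes grouped by role, with 95% intervals from limma, filled where called and open where not. Hprt has the lowest value shown at -0.53, while Xdh at 0.85 and Gda at 0.88 lie to the right of all other genes shown.

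Kinases that raise purine monophosphates to triphosphates were mostly not called, with 1 of 15 tested genes higher, 3 lower and 11 not called (median 0.07). Over all tested genes 19.4% were higher and 20.8% lower. After upper quartile rescaling 5 of the kinase genes were higher and 1 lower. Over all 14164 genes tested with that scaling, 4475 were higher and 1665 lower. Guk1, the gene of the kinase that turns GMP into GDP, was the member that rose, from 936 ± 58.3 to 1161 ± 74.9 (0.31, limma adjusted p = 0.00179). It lies just after Gmps in the route, which fell. Nme1, a nucleoside diphosphate kinase gene, fell from 3424 ± 382 to 2763 ± 151 (-0.30, limma adjusted p = 0.005), a call lost with the depth covariate (-0.18), and its close paralog Nme2 was not called. The mitochondrial kinase gene Ak3 fell by 0.15 (limma adjusted p = 0.0056) and was not called after upper quartile rescaling (-0.05) or quantile normalization (-0.09), or with the depth covariate.

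Purine synthesis takes formyl groups from folate, nitrogen from glutamine and aspartate, and carbon from glycine. Of 15 listed genes of these supplies, all tested, 3 were higher and 4 lower (median -0.07), or 5 higher and 3 lower after upper quartile rescaling. The shares over all tested genes with the deposited scaling were 19.4% higher and 20.8% lower. Upper quartile rescaling gave 4475 higher and 1665 lower of 14164 tested genes. The serine synthesis gene Psat1 fell by 0.68, to 62.2% of Scr. The cytosolic serine hydroxymethyltransferase gene Shmt1 rose from 2278 ± 157 to 2938 ± 96.5 (0.37, limma adjusted p = 0.000107) and the glutamine synthetase gene Glul from 7381 ± 320 to 9434 ± 479 (0.35, limma adjusted p = 5.04e-05). Mthfd1, the gene of the enzyme that makes the formyl donor used by Gart and Atic, was at 3017 in Scr and 2871 in siCasp8 on average and was not called (limma adjusted p = 0.164).

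Pyrimidine and deoxynucleotide synthesis is the pathway most like this one. Of its 21 tested genes 13 were lower and 1 higher (median -0.32), against 5 and 1 of 10 for purine synthesis (median -0.14) and 20.8% lower and 19.4% higher among all tested genes. With upper quartile rescaling the split was 11 lower and 3 higher for pyrimidines and deoxynucleotides and 3 lower and 2 higher for purines. Over all 14164 genes tested with that scaling it was 1665 lower and 4475 higher. Rrm2, which encodes the small subunit of ribonucleotide reductase, fell from 1901 ± 179 to 1018 ± 60.3 (-0.90, limma adjusted p = 8.08e-07). Ctps, the CTP synthetase gene, fell from 3927 ± 146 to 2505 ± 55.1 (-0.65, limma adjusted p = 1.42e-07), and the mitochondrial thymidine kinase gene Tk2 rose by 0.35. The difference between the lists was not tested.

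DNA replication markers moved with the purine genes that fell. All 12 listed markers were lower, against 20.8% of all tested genes, with a median of -0.78 and a range of -1.12 to -0.27. Their summed level was 34140 to 36969 in Scr and 22556 to 24032 in siCasp8. Mcm5 and Mcm4, genes of the replicative helicase, fell by 1.04 and 0.87. None of the 10 purine genes fell as far as the median of these markers. The part of the replication markers in the purine result was not tested.

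**Figure D4:**
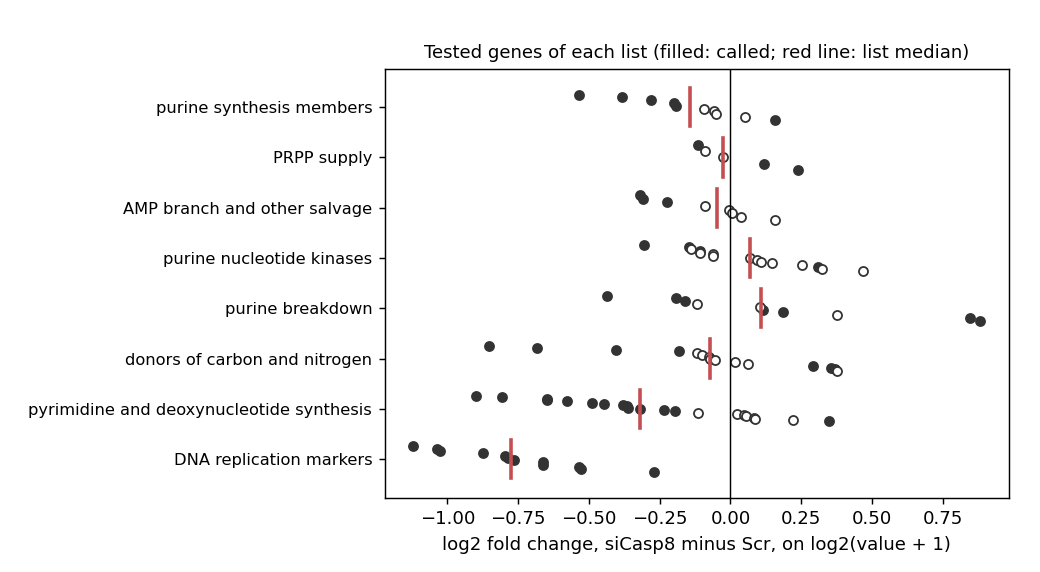
Log2 fold change of siCasp8 minus Scr on log2(value + 1) (horizontal axis) of each tested gene in 8 lists, filled where called and open where not, with the list median as a red line. The 12 replication markers are all below 0 with a median of -0.78, while the purine synthesis genes have a median of -0.14 and Paics to the right of 0.

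The order of the members by fold change was the same at both ends under every scaling tried. Hprt was lowest and Atic next with the deposited scaling, with equal totals, after upper quartile rescaling and under quantile normalization, and Paics was highest in each. Hprt, Atic and Ppat were called lower under all 18 settings beside the main one, with log2 fold changes of -0.56 to -0.43 for Hprt, -0.40 to -0.28 for Atic and -0.31 to -0.18 for Ppat. Calls of Gart, Gmps and Paics held without any single library, and the plot of settings shows where they were lost.

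**Figure D5:**
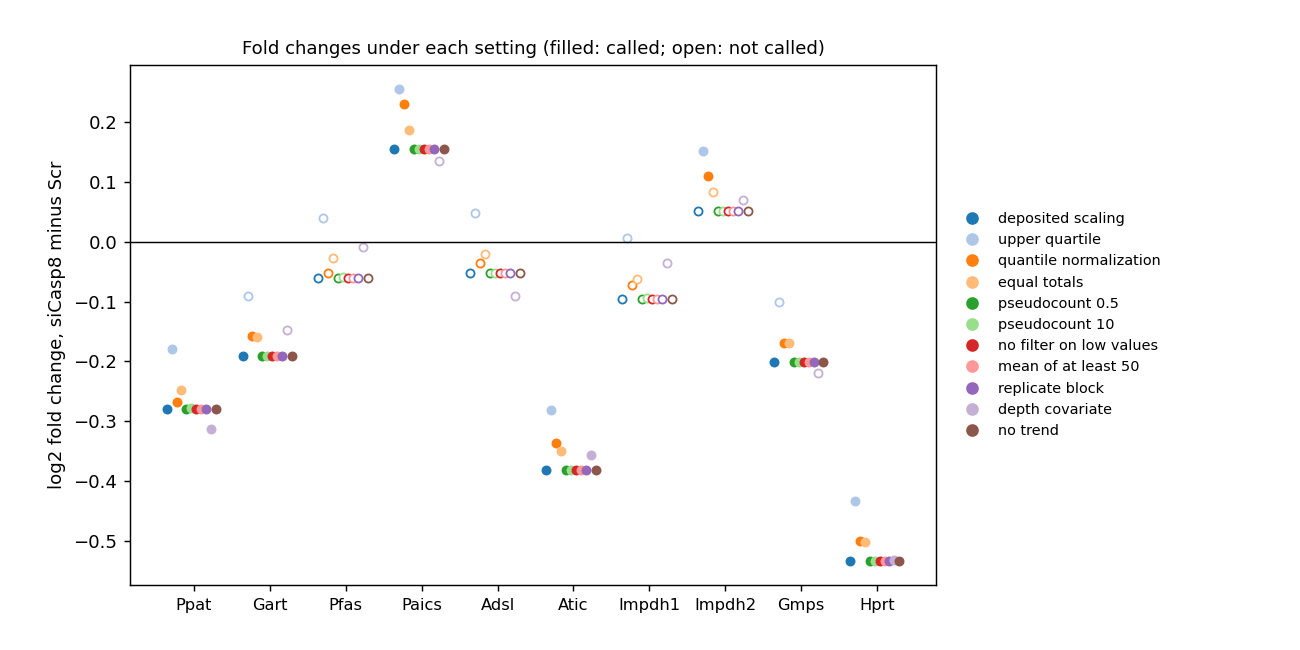
Log2 fold change of siCasp8 minus Scr (vertical axis) of the 10 genes under the deposited scaling and 10 other settings, 1 colour each, filled where called and open where not. Hprt, Atic and Ppat are filled throughout, and upper quartile rescaling (light blue) lies above the deposited scaling for all 10 genes.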

How the data were processed

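Per the submitters' processing notes, bcl2fastq 2.19, kallisto 0.44.0, sleuth and DESeq2 were used, with builds GRCh38 and GRCm38 named without a role. The authors deposited 1 table of a normalized signal per gene symbol, never negative and not whole numbers, whose file title and the processing notes point to kallisto estimates scaled with DESeq2. Library totals carry no depth, so depth was estimated as the total divided by the most frequent low value, which is that of 1 read. Of low values (up to 20.5 reads) 63.0% to 75.0% lay within 0.1 read of a whole multiple, so reads could not be recovered and no count model was used. A row without a symbol held at most 0.0631% of a library.

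Genes with a mean of at least 10 were tested with limma 3.58.1 (R 4.3.3) on log2(value + 1), with a variance trend, two-sided, Benjamini-Hochberg adjusted over 14154 genes. This scale understates changes of low genes. On simulated data for this comparison (14154 genes, 200 changed), 79.0% of genes changed by 1 and 75.0% of those changed by 0.5 on the log2 scale were called, and 6.67% of calls were false. Ratios used an exact permutation test. Alternatives were 3 other scalings, 2 pseudocounts, 2 filters, a replicate block, a depth covariate, no trend and leaving out each library. The p-values measure the spread between these cultures of 1 line.

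The members and lists were chosen with earlier results of these data known. Named genes were the 10 members, Casp8, 12 genes fixed by name, per list up to 2 called genes a direction by lowest adjusted p, and the 3 genes most like the members, 46 in all, of which 1 is not reported here. Other list members are named where a count is spelled out. Positions are from GENCODE M21 and promoters from RefSeq GRCm38.p6.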

Additional observations from a re-analysis of the deposited data

Results flagged for a closer look

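Of 92 groups of 4 libraries (46 named genes in each group), 8 had a library whose gap to the others was a larger part of the group's range than Dixon's 95% limit, and chance flags about 1 in 20 groups. Among the 10 purine synthesis genes this held for Impdh1, at 2284 in siCasp8 replicate 3 against 2567 to 2612 in the other siCasp8 libraries. Without that library the log2 fold change of Impdh1 was -0.05, and the gene was not called with or without it. Prpsap1 was at 2669 in siCasp8 replicate 3 against 2700 to 2702, and Itpa at 999 in siCasp8 replicate 1 against 1073 to 1087. In Scr replicate 1, Gda was at 90.4 against 65.5 to 65.8 and Psat1 at 12903 against 10990 to 11179. In Scr replicate 3, Ak3 was at 11659 against 11194 to 11231 and Cenpn at 265 against 326 to 338. Tk2 was at 947 in Scr replicate 4 against 893 to 897.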

How the results depend on the processing

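With the depth covariate, which rises with the groups, 2764 of 14154 tested genes were called (1289 higher, 1475 lower). Of the 10 purine genes 3 were called. In the lists it was 0 of 5 tested for PRPP supply, 1 of 8 for the AMP branch and salvage and 2 of 15 for kinases. Breakdown had 2 of 10, donors 4 of 15 and regulators 4 of 12. Pyrimidine and deoxynucleotide synthesis had 10 of 21 and the replication markers 12 of 12. This fit was added for the lists after seeing the data. Kinases had 2 calls under quantile normalization and breakdown had 4 after upper quartile rescaling. The cause of these shifts was not tested. Over the other settings the total was 4799 to 6140 called. Same-numbered cultures deviated together only weakly (correlations 0.0785, 0.0442, 0.169 and 0.0554, each highest with its own number), so the numbers were not taken as pairs. With the replicate block 6020 genes and the same 6 purine genes were called, and in the sign-flip test over the numbered pairs the ratio differences were 0.15 for Impdh2 to Impdh1, 0.14 for Prps2 to Prps1 and -0.25 for Hprt to Ppat, at p = 0.125, the smallest that exact test allows. Leaving out each library gave 0.12 to 0.17 for Impdh2 to Impdh1 (exact permutation p up to 0.0571), 0.13 to 0.17 for Prps2 to Prps1 (up to 0.0571) and -0.28 to -0.23 for Hprt to Ppat (0.0286 throughout). Signs turned only in genes that were not called. After upper quartile rescaling these were Pfas (0.0408), Adsl (0.0488), Impdh1 (0.00588), Prps1 (0.0752) and Adss (0.0944). Prps1 was at 0.00674 with equal totals and 0.0187 with the depth covariate, Adss at 0.0509 under quantile normalization and 0.0260 with equal totals, and with the depth covariate Adk was at -0.0198 and Son at -0.0395. Without single libraries Adss ran from -0.0367 to 0.0168, Adk from -0.0580 to 0.0623 and Son from -0.0231 to 0.0400. Low genes such as Gda rest on fewer reads than the purine synthesis genes, and the SE of the Gda log2 fold change was 0.151. The call of Gda held under every setting (limma adjusted p up to 0.0117).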

Other observations

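Of 12 tested genes listed as possible regulators of purine synthesis, 6 were lower and 2 higher (upper quartile rescaling gave 5 and 4). With the deposited scaling 20.8% of all tested genes were lower and 19.4% higher. After upper quartile rescaling 1665 of all 14164 were lower and 4475 higher. The 6 were Myc, Mxd3, Mxd4, Atf4, Nrf1 and E2f1. E2f1 averaged 767 in Scr and 477 in siCasp8 (log2 fold change -0.68, limma adjusted p = 1.18e-05). Myc, whose product is known to drive many purine synthesis genes, read 6776, 6989, 6223 and 6323 in Scr and 5006, 4855, 4869 and 5090 in siCasp8, and fell to 75.3% of Scr (log2 fold change -0.41, limma adjusted p = 1.01e-05). Its relative Mycn was far lower in level and rose from 68.3 ± 26.5 to 126 ± 13.7 (0.94, limma adjusted p = 0.00527), a call lost with the depth covariate (limma adjusted p = 0.0792). Mxd3, which encodes a repressor that shares the partner MAX, fell from 95.9 ± 18.1 to 28.4 ± 2.76 (-1.71). Atf4, the transcription factor gene of the amino acid response, fell by 0.23 (limma adjusted p = 0.000617) and was not called with the depth covariate (limma adjusted p = 0.0731). Mitf rose by 0.64 (limma adjusted p = 0.00498), also lost with the depth covariate (limma adjusted p = 0.215).

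Son, the gene that starts beside Gart in the opposite direction (chromosome 16 from 91647506, plus strand), averaged 22263 ± 1224 (Scr) and 22475 ± 409 (siCasp8; SD, n = 4 each) and was not called (limma adjusted p = 0.80), while Gart fell. The 3 tested genes whose log2 values followed the mean of the standardized purine members most closely were Gdf15 (Pearson r = 0.995), Ppan (0.992) and Cenpn (0.991). These are descriptions over 8 libraries that fall into the 2 groups. Gdf15 fell from 663 ± 94.5 to 370 ± 28.3, Ppan from 2347 ± 132 to 2030 ± 36.7 and Cenpn from 317 ± 34.8 to 193 ± 14.4, and the call of Ppan was lost after upper quartile rescaling and with the depth covariate.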
